A study of Homo sapiens with 6 samples.

Results

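The genes described here carry the symbols of the DDX and DHX RNA helicases: DDX or DHX followed by a number and at most 1 letter. The interferon-response RNA sensors DDX58 and DHX58 and any DDX3Y were left out. Not all members encode an RNA helicase: DDX12P is a noncoding copy of DDX11, DDX11 is a DNA helicase and DDX26B an Integrator subunit. They are counted among the helicase genes here. The rule used no measured value and found 54 genes of 26334, 39 DDX and 15 DHX, with 97 of 51398 isoforms. RNA-Seq was performed on PC-9, a human lung adenocarcinoma cell line driven by mutant EGFR, grown in serum-containing RPMI and given no treatment. Every library came from this line and carried an shRNA: a scrambled hairpin (shScr), shRBM10#1 or shRBM10#2, with 2 libraries per condition and 6 in all. The control libraries are labelled shScr and were analyzed as such, as the study's account of its isoform analysis also has it, although its methods speak of a parental PC-9 line. Nothing says that libraries of 1 condition came from separate cultures, so p-values measure the spread between these libraries, which may be technical.

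DEAD-box (DDX) and DEAH-box (DHX) proteins spend ATP to pry apart short RNA duplexes or to strip proteins from RNA. They act at nearly every step in the life of an RNA, and the spliceosome uses an ordered series of them to check and rearrange itself from the recognition of an intron to the release of the spliced message. Some DEAH-box helicases are switched on by proteins that carry a glycine-rich G-patch. RBM10, the splicing regulator silenced here, is 1 of the proteins with such a domain.

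Expected counts summed to between 31953729 and 37557507 per library, and the helicase genes held 0.477% to 0.504% of them. In CPM (counts scaled to library size), RBM10 stood at 83.2 and 86.2 with shScr, at 59.8 and 56.4 with shRBM10#1 and at 27.2 and 26.9 with shRBM10#2, or 68.6% and 31.9% of the shScr level in the fitted model (FDR = 0.000228 and 5.1e-08, edgeR's quasi-likelihood test). The order of RBM10 levels was therefore shScr, shRBM10#1 and shRBM10#2, with no overlap. The summed level of 7 epithelial markers was 25590 to 27340 TPM with shScr and 26530 to 29030 TPM with shRBM10#1. With shRBM10#2 it was 22850 to 23730 TPM, which lay below the rest. Keratins made up most of this sum, and KRT7, KRT8 and KRT19 were lowest with shRBM10#2. EPCAM was instead highest with shRBM10#2, at 455 and 444 TPM beside 379 and 409 TPM with shScr. KRT18, CDH1 and EGFR with shRBM10#2 overlapped other libraries. The summed level of 9 markers of blood cells, fibroblasts and endothelium was 9.8 to 10.9 TPM with shScr. It was 13.4 to 15.4 TPM with shRBM10#1 and 10.4 TPM with shRBM10#2, and none of the 9 was at 0 throughout. The largest part of this sum was the endothelial gene CDH5, at 4.65 and 6.16 TPM with shScr and 8.45 and 10.9 TPM with shRBM10#1. PECAM1 was also higher with shRBM10#1 than with shScr, COL1A1, VWF and CD3E were lower, and the other markers overlapped or were equal. The leukocyte gene PTPRC reached no more than 0.05 TPM. The part of either marker list in the results was not tested. Fragments averaged 231 nt in shScr replicate 2 and 265 to 281 nt in the other libraries, which enters TPM through the effective length. Genes were therefore compared with each other in TPM, which is scaled by length, and libraries in CPM after TMM scaling.

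Helicase genes were widely expressed in the PC-9 cells. Of the 54, 50 passed the filter on low counts and ranged from 1.64 to 226 TPM over genes and libraries. Their median level with shScr was 32.1 TPM, beside 12.3 TPM over the 14217 genes tested, and 17 of them averaged at least 50 TPM. The highest was DDX39B, which helps load the U2 particle onto introns and escorts messages out of the nucleus, at a mean of 219.5 TPM. It was followed by DDX5, a transcription and splicing cofactor, at 155 TPM and the export factor DDX39A at 140.2 TPM. DDX3X, which aids translation of messages with structured leaders, reached 133.5 TPM and DDX1, a subunit of the tRNA ligase complex, 110.2 TPM. The gap between DDX39A and DDX3X was within the spread of the shScr libraries, as the plot of levels by gene shows.

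The lowest genes past the filter were DDX60 at 1.91 TPM and DDX60L at 2.62 TPM, both induced by interferon, and DDX43, a cancer and testis gene, at 2.61 and 3.38 TPM in the shScr libraries. DDX43 was also the sole germ line helicase of 4 to pass. DDX4, the germ cell marker known as VASA, and DDX53 had no count in any library, which allows up to 3 counts per library. DDX25 had at most 2 counts and DDX26B, now known as the Integrator subunit INTS6L, at most 1 count in a library. Both were at 0 in most libraries. The data thus hold no usable value for these 4 genes.

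**Figure D1:**
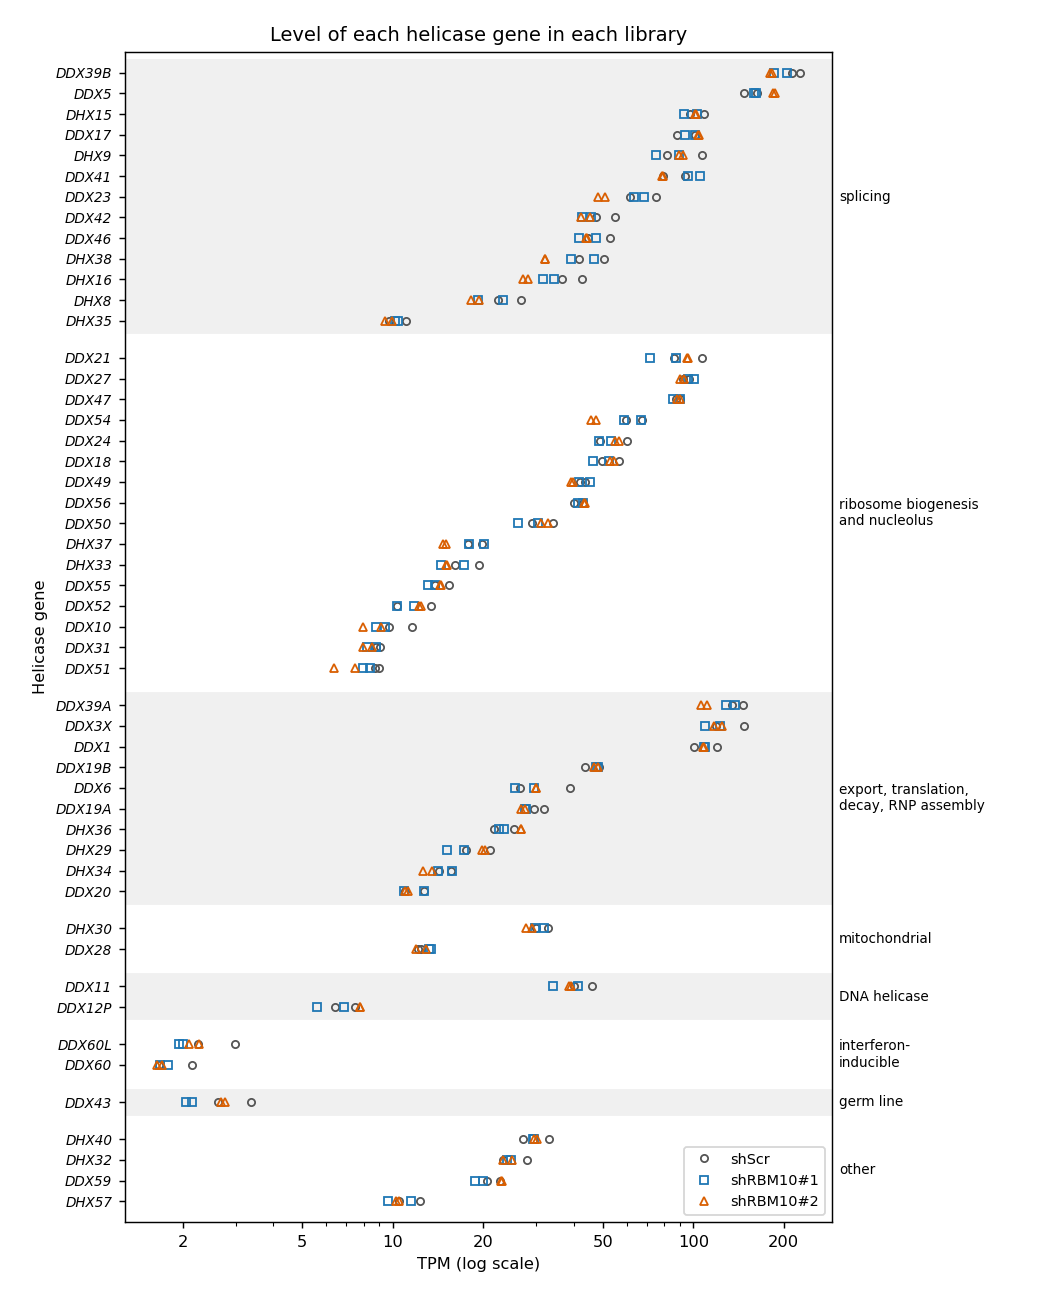
TPM (log axis) of the 50 helicase genes that passed the filter, grouped by role, with 1 symbol per library and 2 libraries per condition. DDX39B led at a mean of 219.5 TPM with shScr and DDX60 stood last at 1.91 TPM, and libraries of a gene lay close together relative to this range.

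Several helicases have isoforms that are the same but for a few nucleotides. In 4 of the genes that carry the isoform results the difference lies in the coding sequence, and the sequences around it are shown because reads across these bases are what tells the isoforms apart. All are read on the transcribed strand from GENCODE 29 transcripts matched by RefSeq identifier (GRCh38), with 30 coding bases on either side in lower case and the bases that only the longer isoform holds in capitals. In DDX46, the Prp5-type helicase that works at the branch point, NM_001300860 keeps 3 bases at the 3′ end of exon 19 of 23 (chr5:134816604-134816606, plus strand). In DDX54, a nucleolar helicase, NM_001111322 keeps 3 bases at the 5′ end of exon 20 of 20 (chr12:113159110-113159112, minus strand). In DDX17, the close relative of DDX5, NM_001098504 keeps 6 bases at the 3′ end of exon 12 of 13 (chr22:38487873-38487878, minus strand). In DHX35, a helicase of the catalytic spliceosome, NM_021931 holds the 93-base exon 3 of 22 (chr20:38972559-38972651, plus strand), which NM_001190809 lacks.
DDX46 NM_001300860: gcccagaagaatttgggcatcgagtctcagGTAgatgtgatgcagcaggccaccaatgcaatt
DDX46 NM_014829: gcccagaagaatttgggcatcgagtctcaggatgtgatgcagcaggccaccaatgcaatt
DDX54 NM_001111322: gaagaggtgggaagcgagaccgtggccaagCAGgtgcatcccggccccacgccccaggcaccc
DDX54 NM_024072: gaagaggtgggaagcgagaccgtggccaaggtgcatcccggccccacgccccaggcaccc
DDX17 NM_001098504: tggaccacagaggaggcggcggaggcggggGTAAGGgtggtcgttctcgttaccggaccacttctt
DDX17 NM_006386: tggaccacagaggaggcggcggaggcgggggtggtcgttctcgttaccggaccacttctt
DHX35 NM_021931: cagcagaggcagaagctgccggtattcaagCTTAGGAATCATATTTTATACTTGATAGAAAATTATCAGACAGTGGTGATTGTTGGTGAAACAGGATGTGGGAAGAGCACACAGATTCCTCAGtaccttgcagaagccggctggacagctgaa
DHX35 NM_001190809: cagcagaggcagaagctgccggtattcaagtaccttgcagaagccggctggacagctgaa
The extra lengths of 3, 6 and 93 bases are all multiples of 3, so each pair shares 1 reading frame on both sides. The 93-base exon of DHX35 encodes the loop that grips the phosphates of ATP, known as motif I or Walker A, and NM_001190809 does not encode it.

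The comparison of each hairpin with shScr asked which helicase genes change when RBM10 is reduced. With shRBM10#1, 1 helicase gene of 50 rose and none fell at an FDR below 0.05 (edgeR's quasi-likelihood test with Benjamini-Hochberg adjustment over 14217 genes), or 2.0% of them, beside 14.0% of all genes tested. At an unadjusted p below 0.05 there were 9 of the 50 helicase genes, beside 4056 of all 14217 genes. DESeq2 called the same single gene, DDX41. By direction, 7.13% of all genes were higher and 6.91% were lower. With shRBM10#2, 12 of 50 changed (24.0%), 3 higher and 9 lower, beside 25.9% of all genes, 12.0% higher and 13.9% lower. The share with shRBM10#2 was thus near that of all genes, and the share with shRBM10#1 was below it. The median log2 FC over the 50 was 0.00 with shRBM10#1 and -0.05 with shRBM10#2, beside 0.01 for all genes with each. Every change was small: none reached an absolute log2 FC above 1, and the largest among called genes was 0.45. Both comparisons share the shScr libraries. In these bulk libraries, a lower level in every cell and fewer cells with the RNA cannot be told apart. The 12 calls with shRBM10#2 became 6 without its replicate 1, 4 without its replicate 2 and 7 without shScr replicate 1, and the single call with shRBM10#1 became 2 without its replicate 1, when DDX21 joined DDX41.

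Of 13 splicing genes, all past the filter, 5 were lower and 2 were higher with shRBM10#2 (53.8%, beside 25.9% of all genes), and 1 was higher with shRBM10#1 (7.69%, beside 14.0%). The roles were assigned with earlier results known, and the difference from all genes was not tested. The median log2 FC of the 13 was -0.08 with shRBM10#2 and 0.00 with shRBM10#1. The lower genes were DHX16, DHX38, DHX8, DDX23 and DDX39B, and the higher ones DDX5 and DDX17.

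DHX16, the human Prp2, primes the assembled spliceosome for the first cut. It stood at 80.6 and 81.5 CPM with shScr, 74.2 and 70.7 with shRBM10#1 and 60.6 and 58.2 with shRBM10#2. Both hairpins lay below shScr without overlap. The log2 FC was -0.45 ± 0.07 (SE) with shRBM10#2 (FDR = 0.000711), or 73.3% of the shScr level, and -0.16 ± 0.07 with shRBM10#1 (FDR = 0.123).

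DHX38, the human Prp16, remodels the spliceosome between the cuts. Its CPM was 122 and 129 with shScr, 134 and 117 with shRBM10#1 and 91.9 and 91.7 with shRBM10#2. The shRBM10#2 libraries lay below all others, and the shRBM10#1 libraries straddled shScr. The log2 FC with shRBM10#2 was -0.45 ± 0.07 (FDR = 0.00127).

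DDX23, the human Prp28, exchanges U1 for U6 at the 5′ splice site. Its CPM was 129.7 and 137.5 with shScr, 140.8 and 135.3 with shRBM10#1 and 103.5 and 98.8 with shRBM10#2. The shRBM10#2 libraries again lay below all others, and the log2 FC with shRBM10#2 was -0.40 ± 0.06 (FDR = 0.00115). DHX8, the human Prp22, frees the finished message. Its CPM was 62.3 and 64.5 with shScr, 63.6 and 54.3 with shRBM10#1 and 51.9 and 49.1 with shRBM10#2, a log2 FC of -0.33 ± 0.08 with shRBM10#2 (FDR = 0.0112). This call was lost without either shRBM10#2 library or without shScr replicate 2. DDX39B, the most abundant helicase, was at 269 and 253 CPM with shScr, 255 and 240.0 with shRBM10#1 and 220.4 and 226 with shRBM10#2. Its log2 FC with shRBM10#2 was -0.22 ± 0.06 (FDR = 0.0234), a call that was lost without shScr replicate 1 or either shRBM10#2 library.

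DDX5 and its paralog DDX17, which can stand in for each other in splicing and transcription, moved the other way. DDX5 was at 359.7 and 348 CPM with shScr, 389 and 396 with shRBM10#1 and 443 and 439 with shRBM10#2. The conditions did not overlap, and their order was the reverse of that of RBM10. The log2 FC was 0.32 ± 0.06 with shRBM10#2 (FDR = 0.00308) and 0.15 ± 0.06 with shRBM10#1 (FDR = 0.129). Between the hairpins it was 0.17 ± 0.06 and did not pass (FDR = 0.0579). DDX17 was at 281 and 279 CPM with shScr, 315 and 303 with shRBM10#1 and 319 and 322 with shRBM10#2. Both hairpins lay above shScr, with a log2 FC of 0.19 ± 0.06 for shRBM10#2 (FDR = 0.0333) and 0.14 ± 0.06 for shRBM10#1 (FDR = 0.146). The calls of both genes were lost without either shRBM10#2 library, and that of DDX17 also without either shScr library.

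DDX41, a helicase of the catalytic spliceosome that is mutated in inherited myeloid cancers, was the gene called with shRBM10#1. Its CPM was 101.3 and 106.1 with shScr, 133 and 125 with shRBM10#1 and 98.5 and 99.4 with shRBM10#2. Only the shRBM10#1 libraries stood above shScr, with a log2 FC of 0.31 ± 0.06 (FDR = 0.00583). With shRBM10#2 the log2 FC was -0.07 ± 0.06 (FDR = 0.476).

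The other 5 splicing genes did not pass the test with either hairpin. DHX15, the human Prp43, takes apart the spliceosome that is left on the excised intron and is the best known partner of G-patch proteins. It was at 188 and 183 CPM with shScr, 194 and 182 with shRBM10#1 and 191 and 190.5 with shRBM10#2, so the conditions overlapped or lay side by side. DDX46 was at 171 and 175 CPM with shScr, 179 and 162 with shRBM10#1 and 163 and 166 with shRBM10#2. DHX9, which unwinds long duplexes, was at 245 and 279 CPM with shScr, and its libraries with either hairpin lay between 228 and 269 CPM. DDX42, which handles the U2 particle, had a log2 FC of -0.12 ± 0.06 with shRBM10#1 (FDR = 0.259) and -0.16 ± 0.06 with shRBM10#2 (FDR = 0.0822), and all 4 knockdown libraries lay below both shScr libraries. DHX35 had a log2 FC of 0.08 ± 0.08 and -0.04 ± 0.08.

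**Figure D2:**
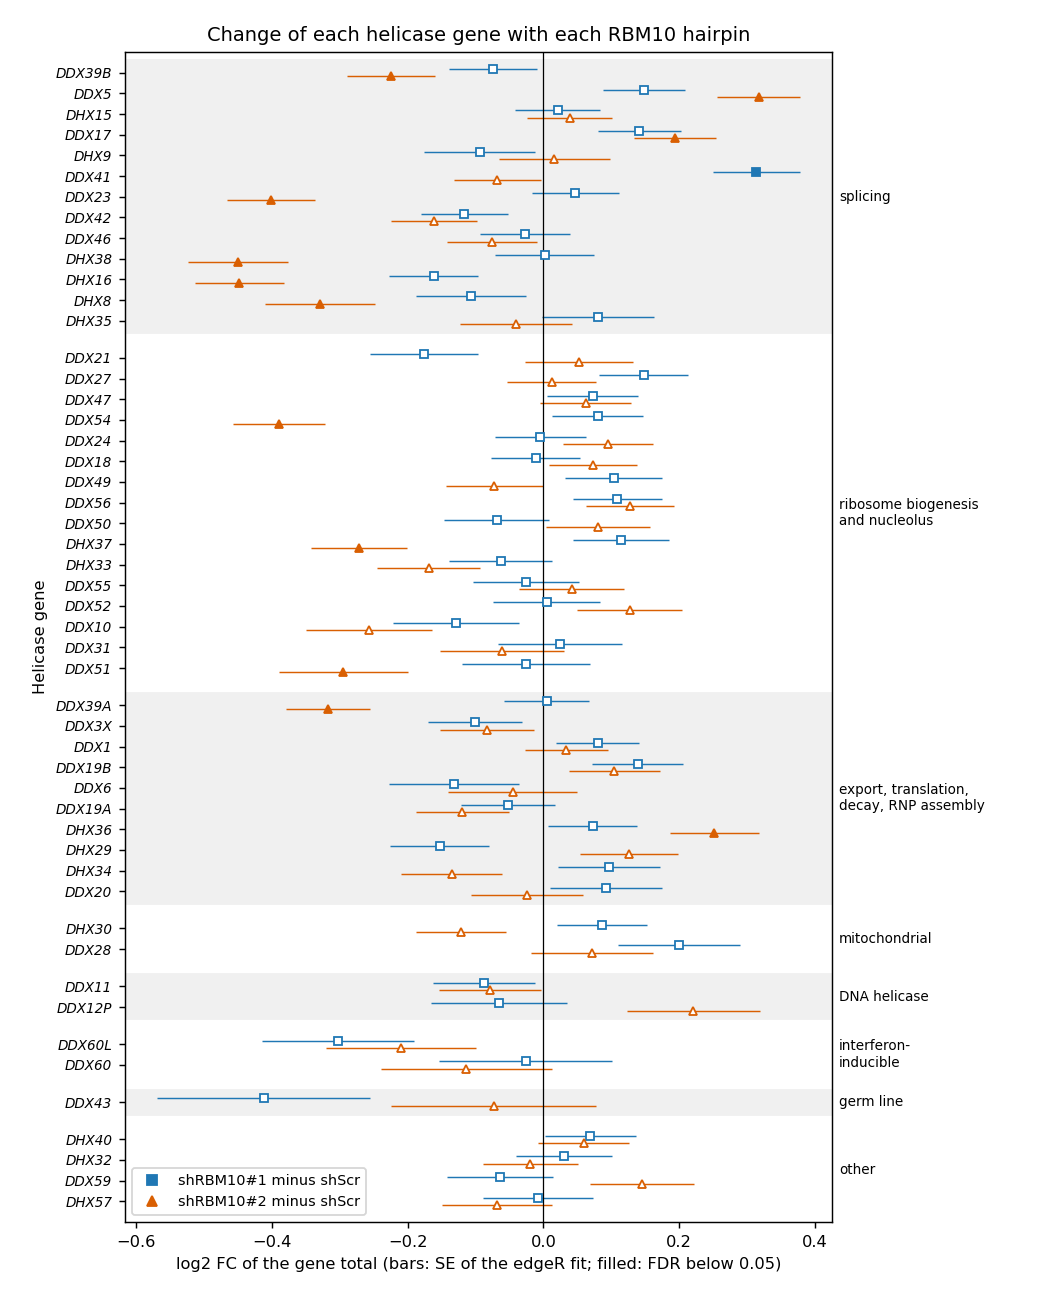
Log2 FC of the gene total for each of the 50 helicase genes, with shRBM10#1 (squares) and shRBM10#2 (triangles) against shScr, grouped by role; bars are the SE of the fit on 2 libraries per condition and filled symbols mark an FDR below 0.05. The 12 filled triangles run from -0.45 (DHX38) to 0.32 (DDX5), and DDX41 at 0.31 is the single filled square.

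Among the 16 helicases of ribosome production and the nucleolus, none was called with shRBM10#1, beside 14.0% of all genes. There 2 of the 16 had an unadjusted p below 0.05, beside 4056 of all 14217 genes, and DESeq2 called 0. With shRBM10#2 3 were lower and 13 did not pass (18.8% called, beside 25.9% of all genes), with a median log2 FC of 0.03. DDX54 also acts as a corepressor of nuclear receptors. It was at 173 and 169 CPM with shScr, 190 and 172 with shRBM10#1 and 128 and 133.5 with shRBM10#2. The shRBM10#2 libraries lay apart from the rest, with a log2 FC of -0.39 ± 0.07 (FDR = 0.00179). DHX37, which works with UTP14A in making the small ribosomal subunit, was at 53.4 and 51.8 CPM with shScr, 59.3 and 54.6 with shRBM10#1 and 44.0 and 43.1 with shRBM10#2. Its log2 FC with shRBM10#2 was -0.27 ± 0.07 (FDR = 0.0146), and the call was lost without shScr replicate 1 or either shRBM10#2 library. DDX51, which releases a snoRNA from the precursor of the large subunit RNA, had a log2 FC of -0.29 ± 0.09 (FDR = 0.0376), and its call was lost without shScr replicate 1 or shRBM10#2 replicate 2 and in DESeq2 (FDR = 0.0515). DDX21, which ties RNA polymerase I activity to rRNA processing, was at 269 and 291 CPM with shScr, 269 and 227 with shRBM10#1 and 289 and 292 with shRBM10#2, and did not pass the test with either hairpin.

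Of the 10 helicases of export, translation, decay and RNP assembly, none was called with shRBM10#1, beside 14.0% of all genes. There 0 of the 10 had an unadjusted p below 0.05, beside 4056 of all 14217 genes, and DESeq2 called 0. With shRBM10#2 1 was lower, 1 was higher and 8 did not pass, with a median log2 FC of -0.03. The export factor DDX39A, the paralog of DDX39B, was at 119 and 116 CPM with shScr, 119.6 and 116.0 with shRBM10#1 and 96.1 and 92.4 with shRBM10#2. Its level with shRBM10#1 was that of shScr, and the log2 FC with shRBM10#2 was -0.32 ± 0.06 (FDR = 0.00349), a call that was lost without shRBM10#2 replicate 2. DHX36, which unwinds G-quadruplexes, was at 50.7 and 51.8 CPM with shScr, 54.1 and 53.8 with shRBM10#1 and 61.0 and 61.1 with shRBM10#2. The log2 FC with shRBM10#2 was 0.25 ± 0.07 (FDR = 0.0141), and the call was lost without shScr replicate 1 or either shRBM10#2 library. DDX3X had a log2 FC of -0.10 ± 0.07 with shRBM10#1 and -0.08 ± 0.07 with shRBM10#2, and DDX6, a core factor of decapping and P-bodies, -0.13 ± 0.10 and -0.05 ± 0.10. The shScr libraries of DDX6 differed more than the conditions did, at 111 and 140.0 CPM.

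In the remaining groups no gene was called with either hairpin by edgeR, beside 14.0% and 25.9% of all genes, and DESeq2 also called 0. The mitochondrial helicases DHX30 and DDX28, both of the mitochondrial ribosome, had log2 FC values of 0.09 ± 0.07 and 0.20 ± 0.09 with shRBM10#1 and -0.12 ± 0.07 and 0.07 ± 0.09 with shRBM10#2. The cohesion helicase DDX11 and its copy DDX12P had -0.09 ± 0.08 and -0.07 ± 0.10 with shRBM10#1 and -0.08 ± 0.08 and 0.22 ± 0.10 with shRBM10#2. DDX60L was lower without overlap in all 4 knockdown libraries, with a log2 FC of -0.30 ± 0.11 (FDR = 0.0935) and -0.21 ± 0.11 (FDR = 0.183). DDX43 had the largest value of any helicase with shRBM10#1, -0.41 ± 0.16 (FDR = 0.103), at between 3.42 and 5.04 CPM over all libraries. At an unadjusted p below 0.05 these were 3 of 11 genes with shRBM10#1 (DDX28, DDX43 and DDX60L) and 1 with shRBM10#2 (DDX12P). Over all 14217 genes the counts were 4056 and 5382.

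**Figure D3:**
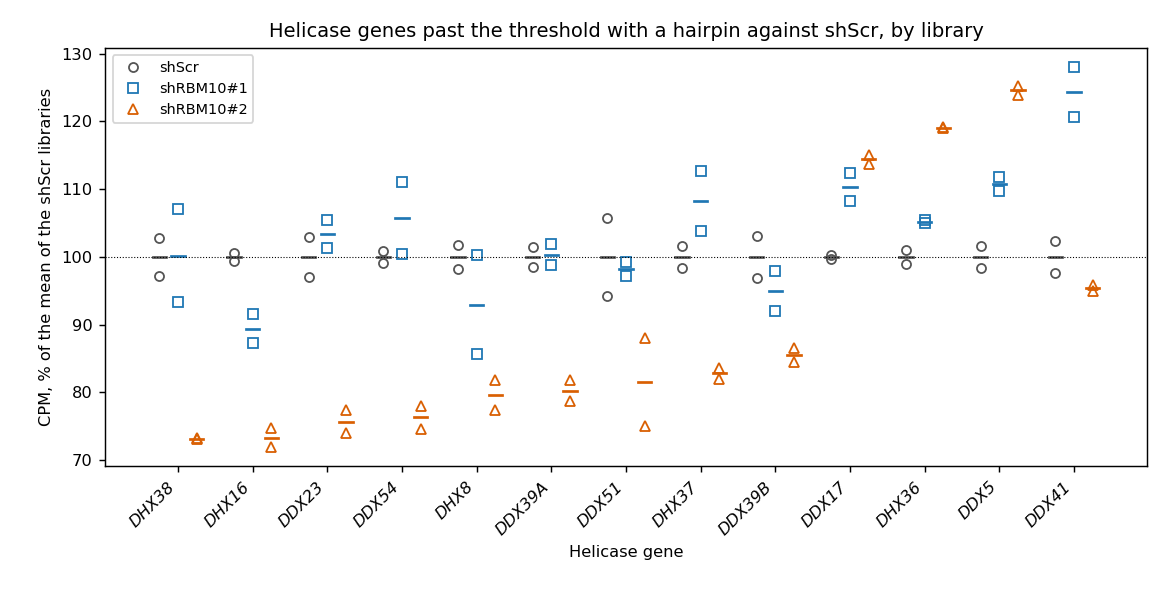
CPM of the 13 helicase genes past the threshold with either hairpin, as percent of the mean of the shScr libraries (dotted line at 100), with 1 symbol per library and short lines at the mean of 2. The shRBM10#2 libraries lie below both shScr libraries in the 9 lower genes and above them in DDX17, DHX36 and DDX5, whereas DDX41 is raised in the shRBM10#1 libraries alone.

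The comparison of the hairpins with each other tested the differences between them directly. Between shRBM10#2 and shRBM10#1, 11 of 50 helicase genes differed (22.0%), 2 higher and 9 lower with shRBM10#2, beside 25.5% of all genes, 11.0% higher and 14.5% lower. The lower genes were led by DDX54 (-0.47 ± 0.07, FDR = 0.000619), DHX38 (-0.45 ± 0.07, FDR = 0.00122) and DDX23 (-0.45 ± 0.06, FDR = 0.000625). DHX37 differed by -0.39 ± 0.07 (FDR = 0.00232), DDX41 by -0.38 ± 0.06 (FDR = 0.0014) and DDX39A by -0.32 ± 0.06 (FDR = 0.0032). DHX16, DHX34 and DHX30 completed the list with -0.29 ± 0.07, -0.23 ± 0.07 and -0.21 ± 0.07. DHX34, a factor of nonsense-mediated decay, was at 44.5 and 41.3 CPM with shRBM10#1 and 37.6 and 35.3 with shRBM10#2, on either side of the 41.1 and 39.1 CPM of shScr. DHX29, which helps ribosomes scan structured leaders, was higher with shRBM10#2 by 0.28 ± 0.07 (FDR = 0.0144). Its CPM was 51.7 and 53.8 with shScr, 49.9 and 45.2 with shRBM10#1 and 56.7 and 58.5 with shRBM10#2. DDX12P was higher by 0.29 ± 0.10 (FDR = 0.0489), and reads of this copy of DDX11 cannot be told with certainty from those of DDX11. Of the 12 genes called with shRBM10#2 against shScr, 6 were also called here, and these comparisons share the shRBM10#2 libraries. The 11 calls became 6 without shRBM10#2 replicate 1 and 4 without its replicate 2, namely DDX23, DDX41, DDX54 and DHX38. The calls of DHX30 and DHX34 were also lost without shRBM10#1 replicate 1, that of DHX29 without shRBM10#1 replicate 2, and that of DDX12P without any of 5 libraries, with shRBM10#1 replicate 1 the exception. DESeq2 did not call DHX34 (FDR = 0.0573) or DDX12P (FDR = 0.0923), and DDX12P was also lost when the fit held only the hairpin libraries (FDR = 0.0649).

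When the 4 RBM10 KD libraries were taken as 1 group, no helicase gene of 50 passed an FDR of 0.05 in edgeR, beside 1.62% of all genes, and DESeq2 called 0. At an unadjusted p below 0.05 there were 4 of the 50, beside 2450 of all 14217 genes: DDX5, DDX17, DHX16 and DDX60L. RBM10 itself had an FDR of 0.146 in this fit, with a log2 FC of -0.99 ± 0.31, in which the difference between the hairpins counts as error. With 1 coefficient per condition the same pooled contrast gave 6 calls of 50, beside 18.4% of all genes. These were DDX5 and DDX17 (higher) and DHX16, DHX38, DHX8 and DDX23 (lower).

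The change of a helicase gene moved with the GC content of its transcripts. Across the 50 genes, Spearman's rho between GC content and log2 FC was 0.45 with shRBM10#1, -0.37 with shRBM10#2 and -0.66 between the hairpins, beside 0.12, -0.36 and -0.47 over 13782 genes. These points share libraries and are given as a description. The 9 genes lower with shRBM10#2 had a GC content of 50.3% to 61.3%, and the 3 higher ones 38.5% to 50.2%. With an offset for GC content in each library, chosen after the data were seen, DDX51, DHX36 and DHX37 were no longer called with shRBM10#2, with log2 FC values of -0.20, 0.09 and -0.16. DHX29, DHX30 and DHX34 were no longer called between the hairpins, with 0.12, -0.08 and -0.07. The offset added DDX3X, DDX10, DDX46 and DDX60L as lower and DDX12P and DDX56 as higher with shRBM10#2, and DDX46 as lower between the hairpins. DHX16, DHX38, DDX23, DDX54, DDX39A, DHX8 and DDX39B were still called as lower with shRBM10#2, DDX5 and DDX17 as higher, and DDX41 as higher with shRBM10#1. The part of GC content in the changes was not tested beyond this.

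**Figure D4:**
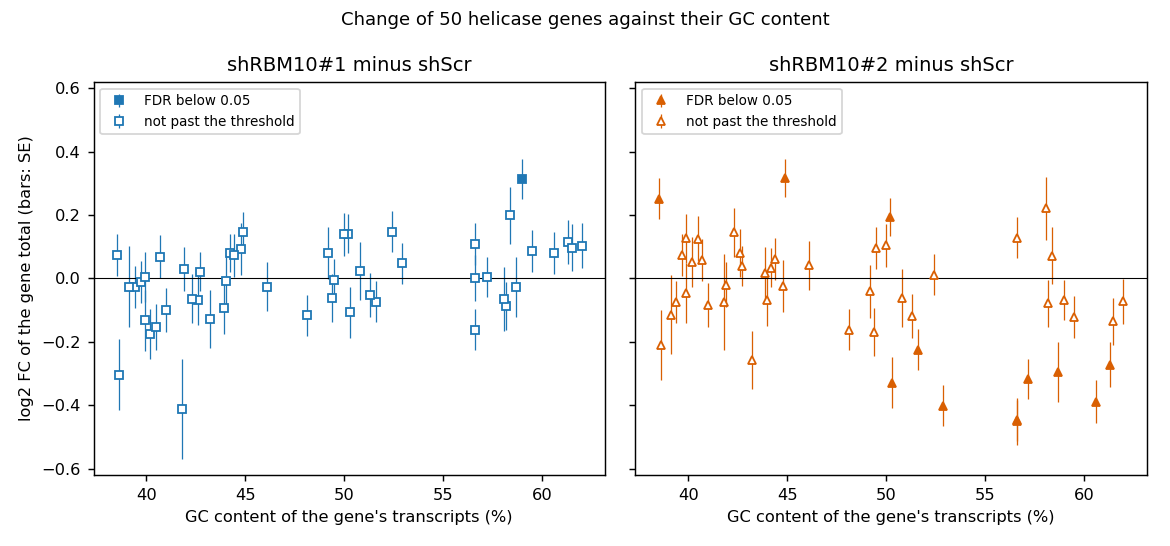
Log2 FC against shScr of the 50 helicase genes (bars: SE) plotted against the GC content of their transcripts in percent, with shRBM10#1 on the left and shRBM10#2 on the right and filled symbols for an FDR below 0.05. With shRBM10#2 the 9 lower genes all lie at a GC content of at least 50.3%, and Spearman's rho is -0.37 on the right and 0.45 on the left.

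Isoform shares were compared next, since RBM10 is a regulator of splice choice. Of the 54 genes, 26 have more than 1 isoform listed, and 20 had at least 2 isoforms past the filter. No helicase gene passed an FDR of 0.05 for isoform usage (edgeR's diffSpliceDGE), beside 0.172% of 6405 genes with shRBM10#1, 2.75% with shRBM10#2, 1.92% between the hairpins and 0.515% with the KD libraries pooled. Limma's diffSplice called 0 helicase genes as well. At an unadjusted p below 0.05 there was 1 gene with shRBM10#1, DDX46 (FDR = 0.403 in edgeR), and 0 in the other comparisons. Over isoforms as separate features, 0 of the 80 helicase isoforms past the filter met the study's criteria of an FDR below 0.05 and an absolute log2 FC above 1, beside 0.0227% of 26464 isoforms with shRBM10#1, 0.491% with shRBM10#2 and 0.0% with the KD libraries pooled. DESeq2 gave 0 too. At an unadjusted p below 0.05 there were 6, 18 and 6 of the 80 helicase isoforms. The share of all isoforms at this p was not taken, so these counts do not set helicase isoforms apart. Over gene totals, 4056, 5382 and 2450 of 14217 genes were at this p in the same comparisons. By FDR alone, 4 of 80 helicase isoforms changed with shRBM10#2, beside 2.26% of all isoforms. Those of DDX23 (NM_004818, -0.40), DDX54 (NM_024072, -0.49) and DDX39A (NM_005804, -0.31) were lower and that of DDX5 (NM_004396, 0.32) was higher. Their FDR was 0.0436 to 0.0496 (edgeR's quasi-likelihood test). DDX23 and DDX5 have 1 isoform listed, and NM_005804 held 100% of DDX39A in every library, so these isoforms repeat the gene totals.

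DDX46 had the clearest shift in shares. NM_014829, the isoform without the 3 bases GTA shown above, made up 27.3% and 25.1% of the gene with shScr, 18.7% and 17.9% with shRBM10#1 and 22.0% and 21.1% with shRBM10#2. All 4 knockdown libraries lay below both shScr libraries. The share of NM_001300860, which keeps the bases, averaged 72.9% ± 1.81 (SD, n = 2) with shScr, 81.0% ± 0.714 with shRBM10#1 and 77.6% ± 0.451 with shRBM10#2. Relative to its gene, NM_014829 had a log2 FC of -0.52 with shRBM10#1 and -0.29 with shRBM10#2, and neither passed (FDR = 0.351 and 0.816). It rested on 1044 to 1519 expected counts per library. Between the hairpins NM_014829 differed by 0.23 relative to its gene (FDR = 1.0).

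DDX42 was added after its values were seen. Its isoforms NM_007372 and NM_203499 encode a protein of the same coding length. NM_007372 made up 19.6% and 19.9% of the gene with shScr, 15.7% and 16.1% with shRBM10#1 and 17.7% and 14.9% with shRBM10#2. The 4 knockdown libraries again lay below shScr, with an FDR of 1.0 for each hairpin. Of 48 helicase isoforms in the usage test, in genes of at least 5 TPM, 8 (16.7%) had all 4 knockdown libraries on 1 side of both shScr libraries, beside 17.8% of 14930 isoforms of all genes. These 8 are isoforms of DDX46, DDX42, DDX21 and DDX3X, and shares of isoforms of 1 gene are not independent of each other. In DDX3X they were the minor isoforms NM_001356, at no more than 2.86% of the gene, and NR_126094, at no more than 1.48%. For its main isoforms NM_001193416 and NM_001193417 the knockdown libraries overlapped shScr.

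In DHX35 the largest difference of means came from 1 library. NM_021931, with the exon of the ATP loop, made up 95.8% and 75.1% of the gene with shScr, 89.3% and 90.2% with shRBM10#1 and 73.5% and 75.6% with shRBM10#2. The shScr libraries were farther apart than the conditions, and shScr replicate 2 was level with shRBM10#2. NR_033905, annotated as noncoding, took 1.75% and 16.4% with shScr, 5.62% and 7.21% with shRBM10#1 and 16.0% and 16.2% with shRBM10#2. It was matched to the same GENCODE transcript as NM_021931, so whether it holds the exon was not examined. A lower share of NM_021931 thus does not show loss of the exon. DHX35 is a low gene, with 11.7 to 124 expected counts per library for NR_033905.

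In DHX30 the shScr libraries lay closer together. NM_138615 made up 72.2% and 66.4% with shScr, 77.4% and 65.5% with shRBM10#1 and 54.6% and 62.3% with shRBM10#2. Both shRBM10#2 libraries lay below all others, and the mean differed from shScr by -10.8 percentage points. NM_014966 took 21.1% and 27.7% with shScr, 19.5% and 28.0% with shRBM10#1 and 34.8% and 28.2% with shRBM10#2. Neither isoform passed (FDR = 1.0 and 0.774 with shRBM10#2).

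The other pairs shown above differed little. In DDX54, NM_024072, without the bases CAG, made up 40.9% and 47.2% with shScr, 39.8% and 43.7% with shRBM10#1 and 40.7% and 41.3% with shRBM10#2, so the lower total with shRBM10#2 came with shares inside the shScr range or at its edge. In DDX17, NM_001098504, with the bases GTAAGG, made up 23.6% and 18.5% with shScr, 23.3% and 23.6% with shRBM10#1 and 26.9% and 21.3% with shRBM10#2. Isoforms a few bases apart are told apart only by reads over those bases, and RSEM divides all other reads in proportion.

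**Figure D5:**
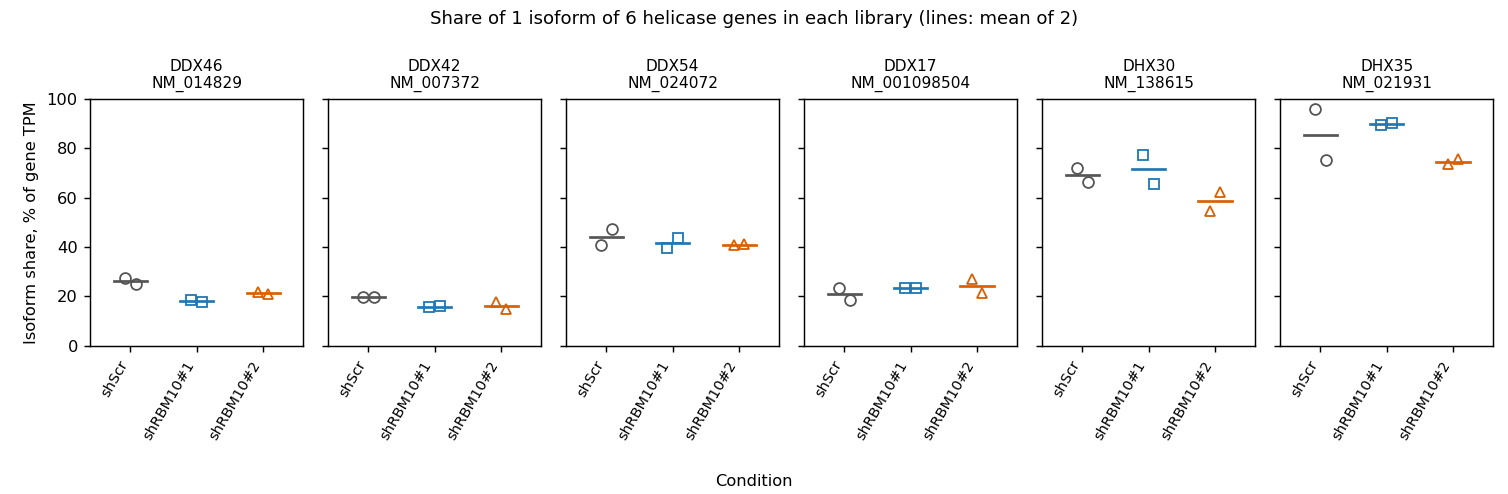
Share of 1 isoform in 6 helicase genes, as percent of the gene's TPM, with 1 symbol per library and lines at the mean of 2 libraries per condition. DDX46 NM_014829 stands at 27.3% and 25.1% with shScr and at 17.9% to 22.0% with the hairpins, whereas the shScr libraries of DHX35 NM_021931 span 75.1% to 95.8%.

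Genes with a G-patch and helicase genes with other symbols were examined as context. Of 21 genes with a G-patch, all past the filter, 3 changed with shRBM10#1 (14.3%, beside 14.0% of all genes) and 9 with shRBM10#2 (42.9%, beside 25.9%), with the silenced RBM10 itself among each. The difference from all genes was not tested. With shRBM10#1 the others were AGGF1 (0.23 ± 0.07, FDR = 0.0352) and RBM5 (0.30 ± 0.09, FDR = 0.041), both higher. RBM5, the paralog of RBM10 whose G-patch binds DHX15, was at 24.2 and 23.6 CPM with shScr, 26.9 and 31.8 with shRBM10#1 and 31.1 and 31.4 with shRBM10#2, with a log2 FC of 0.39 ± 0.09 for shRBM10#2 (FDR = 0.00757). CMTR1, the cap methyltransferase that DHX15 binds, was lower with shRBM10#2 by -0.54 ± 0.09 (FDR = 0.00117), at 51.7 and 60.1 CPM with shScr and 37.2 and 39.6 CPM. With shRBM10#2, 4 G-patch genes were higher and 5 lower. Between the hairpins 9 were lower with shRBM10#2 and none was higher, beside 14.5% and 11.0% of all genes. They were led by RBM10, GPANK1 (-0.41 ± 0.10, FDR = 0.00967) and CMTR1 (-0.35 ± 0.09, FDR = 0.0118). In the pooled test edgeR called 0, with 4 of the 21 at an unadjusted p below 0.05, beside 2450 of 14217 genes.

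Of 13 helicase genes outside the DDX and DHX symbols, edgeR called none with shRBM10#1, beside 14.0% of all genes. There 1 of the 13 had an unadjusted p below 0.05. With shRBM10#2 4 were lower (30.8%, near the 25.9% of all genes). SKIV2L, the cytoplasmic exosome helicase, had -0.46 ± 0.09 (FDR = 0.00247), SNRNP200, which unwinds U4 from U6, -0.34 ± 0.07 (FDR = 0.00492) and UPF1, the helicase of nonsense-mediated decay, -0.31 ± 0.07 (FDR = 0.00945). Between the hairpins UPF1 (-0.37 ± 0.07, FDR = 0.00359) and SKIV2L (-0.32 ± 0.09, FDR = 0.0155) were lower with shRBM10#2 and SUPV3L1, the mitochondrial RNA helicase, was higher (0.26 ± 0.07, FDR = 0.0208). The median of the 13 was 0.01 with shRBM10#2 and -0.03 with shRBM10#1.

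Some helicases share sequence with a close copy, and their counts depend on how RSEM split shared reads: DDX11 with DDX12P, DDX19A with DDX19B, DDX39A with DDX39B and DDX60 with DDX60L. DHX16 and DDX39B lie in the MHC region and are listed with numbered copies. Whether the libraries kept the strand is not given in the sources used here, so reads of DDX11 and of an antisense gene over it cannot be told apart.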

How the data were processed

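RNA from 6 PC-9 libraries was analyzed, 2 per condition, grouped by their titles. The submitters' processing notes name STAR 2.4, RSEM 1.2.29, edgeR and hg19. The authors deposited 1 RSEM table per library with expected counts per RefSeq isoform, which need not be whole because shared reads are split between isoforms. The authors also deposited TPM, scaled by effective length, FPKM, which was not used here, lengths and each isoform's percent of its gene. The read length, the strand protocol and the edgeR test are not given in the sources used here.

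Expected counts were summed per gene, rounded and tested with edgeR 4.0.16 (R 4.3.3): TMM scaling, filterByExpr by condition, glmQLFit with 1 coefficient per condition over all 6 libraries, and Benjamini-Hochberg adjustment over all genes. The pooled contrast had 1 coefficient for the 4 KD libraries. Isoform usage was tested with diffSpliceDGE (Simes p per gene) on isoforms past the filter. Shares were taken from TPM and are close to the deposited percent. CPM used TMM-scaled totals. All tests were two-sided and none had a replicate block, because the methods name none. The correlation of same-numbered deviations was -0.00383, -0.0193 and -0.0136 for the 3 pairs of conditions, so the numbers were not taken as pairs. TMM factors ranged from 0.979 to 1.025. Replicate counts differed by more than sampling noise (chi-square per degree of freedom 9.8, 12.5 and 3.24), so each library was counted once. Depth limits precision through counting error alone.

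The genes, roles, gene lists and tests were chosen with earlier results of these data known. Genes were named if they passed an FDR of 0.05 in any gene total comparison, if they were among the 5 highest or 3 lowest past the filter, or if they were on a list of 13 spliceosomal and other well-known helicases. Isoforms were named for the 6 largest differences of mean share in genes of at least 5 TPM. DDX42, DDX28, DDX11, the genes below the filter and those added by the GC offset were named after their values were seen. Of the context lists, at most the 3 genes with the smallest p per comparison were named. Alternatives were DESeq2 1.42.0, its size factors in edgeR, limma 3.58.1, other filters, the study's criteria, fewer libraries, the block and each library left out. A GC offset (loess, span 0.3) was added after the data were seen. Procedures were tested on simulated counts. All 97 helicase isoforms matched a GENCODE 29 transcript (GRCh38), and no coordinate was converted. Figures were drawn with matplotlib 3.10.9 in Python 3.11.15.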

Additional observations from a re-analysis of the deposited data

How the results depend on the processing

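Of 24 calls of a helicase gene in a gene total comparison, 9 were kept under all 14 alternatives and none changed sign. The 9 are DDX23, DDX54 and DHX38 with shRBM10#2 against both shScr and shRBM10#1, DHX16 with shRBM10#2 against shScr, and DDX41 with shRBM10#1 against shScr and between the hairpins. Under the study's criteria, with an absolute log2 FC above 1, no helicase gene total was called, 0 of 1, 0 of 12 and 0 of 11. The pooled contrast with 1 coefficient per condition called 6 in place of 0, since the difference between the hairpins then no longer counts as error, and isoform levels with shRBM10#2 gave 4 by FDR alone in place of 0, since smaller changes then count.

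With 1 library left out, calls ranged from 1 to 2 with shRBM10#1, from 4 to 16 with shRBM10#2, from 4 to 11 between the hairpins, and stayed at 0 in the pooled test and for isoform usage. A lone library was then assumed to vary like the other conditions. With the replicate block the counts were 1, 11, 10 and 0. With the GC offset they were 1, 15, 9 and 0, and with the GC offset and the replicate block 1, 9, 6 and 0. Neither these counts nor those with a library left out have the share of all genes at the same setting beside them. They describe the helicase calls alone. The block ended the calls of DDX17 with shRBM10#2 and of DHX30 and DDX12P between the hairpins, and the numbers share nothing else that the labels state. The block gave 0 for isoform usage and isoform levels as well.

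Of 60 values of the 6 isoform share differences under alternatives, all moved by at most 1 SD, and 7 changed sign, all in DHX30 and DHX35. DHX35 is a low gene, and the part of depth in the spread of its isoform shares was not tested.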
